A study of Saccharomyces cerevisiae with 16 samples.

Results

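The dependence of translation on eIF4B was compared between a shift to 37 °C and a shift to 15 °C in budding yeast, *Saccharomyces cerevisiae*. The study asked whether long mRNAs with structured leaders need this initiation factor most. Translational efficiency (TE) is the log2 value of ribosome-protected mRNA fragments (footprints) of a gene minus the log2 value of its mRNA. For each gene the TE difference, *tif3*Δ minus wild type, was taken at 37 °C and at 15 °C, and the quantity described throughout is the first minus the second. Genes were kept where the mean normalised value over both genotypes was 64 or more in footprints and in mRNA at both temperatures. This left 3728 genes, without *TIF3*, of 5338 listed in either experiment and of 5182 listed in both.

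*TIF3* encodes eIF4B, an RNA-binding initiation factor that works with eIF4A, the RNA helicase of the cap-binding complex eIF4F, while the small ribosomal subunit is brought to an mRNA and moves to the start codon. Yeast lives without it, but grows poorly in the cold. Heat and cold both change what an initiating ribosome meets: RNA structures are more stable at low temperature, and high temperature calls for chaperones and wall repair. TE rests on footprints and on mRNA alike, so each difference below is also split into its footprint part and its mRNA part.

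The groups at 37 °C (experiment 1) were *tif3*Δ, strain FJZ52, and wild-type *TIF3*, strain FJZ46. The groups at 15 °C (experiment 2) carry the same strain names. All cultures grew to an OD600 of about 0.7 in synthetic complete medium, were shifted, and received cycloheximide, an elongation inhibitor, at 100 µg per ml for 2 min before harvest. Each genotype and temperature had 2 footprint and 2 mRNA libraries, 16 in all, but the deposited tables hold 1 log2 value per gene and group. No difference below therefore has a replicate error or a test. "Lower" and "higher" describe group values, and a gene is counted where values lie at least 1.5-fold apart.

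The depth was read from the spacing of the lowest footprint values. It gave about 11900000 footprints in *tif3*Δ and 17500000 in wild type at 37 °C, and 1840000 in *tif3*Δ and 5390000 in wild type at 15 °C. A median gene of the set had about 669, 1010, 110 and 323 footprints in these groups. The counting error of the footprints alone gave a median standard error of 0.18 on the log2 scale for the 37 °C minus 15 °C difference; it leaves out library-to-library variation and the mRNA, whose depth is unknown. Of the 3728 genes, 1981 had about 100 or more footprints in every footprint group. The limit of 64 removed 1453 genes listed in both tables, 1123 of them through their 15 °C values alone, and 274 of the genes kept had at least 1 of their 8 values below 64. *INM2* and *SOH1* lay just inside the limit, with a 37 °C minus 15 °C difference of -0.51 and 0.56. *YFT2* and *COS111* lay just outside, with -0.1 and 0.54.

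*TIF3* itself stood at log2 3.1 in *tif3*Δ and 11.2 in wild-type mRNA at 37 °C, 274-fold apart, and its footprints were 156-fold lower. At 15 °C its mRNA stood at 6.4 in *tif3*Δ and 10.6 in wild type, 18.4-fold apart, and its footprints were 42.8-fold lower. Its neighbour in R64, *MMS1*, a ubiquitin ligase subunit, had the lowest TE difference of the set at 37 °C (-3.55) and was also low at 15 °C (-2.77), on about 9 footprints in the shallowest group.

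Genes that mark the 2 mating types of haploid yeast did not behave alike in the experiments, although the strain names are the same. The 4 α-specific genes were all listed at 37 °C, with a median log2 mRNA value of 13.05 in *tif3*Δ and 10.4 in wild type. At 15 °C only *SAG1* and *STE3* of them were listed, with a median of 4.55 in *tif3*Δ and 5.2 in wild type. The 7 **a**-specific genes had a median log2 mRNA value of 6.8 in *tif3*Δ and 2.9 in wild type at 37 °C, and 8.9 in *tif3*Δ and 8.3 in wild type at 15 °C. In wild-type footprints at 37 °C, *MFA1*, the **a**-factor gene, was listed at 0. The cultures of the 2 experiments thus differed in mating-type genes as well as in temperature, and these differences cannot be told apart from temperature. Fewer cells of a type and less RNA per cell cannot be told apart in such bulk samples either. The tables of the experiments were normalised separately, which cancels from differences between genotypes within a table but not from levels set across temperatures. The median TE difference over the set was -0.01 at 37 °C and -0.01 at 15 °C. Higher and lower TE are thus relative to the other genes, and whether translation as a whole differed between genotypes was not tested.

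The start codon and its neighbourhood are where the scanning ribosome stops, and a purine, mostly A, 3 bases before the ATG is the best known feature of yeast start sites. The windows below hold 15 bases before the start codon and the first 15 coding bases of 12 genes that stand for the patterns described next, from RefSeq R64, on the coding strand, with the ATG in capitals. *URA2* and *FKS1* were low in TE in *tif3*Δ at both temperatures, *RPL41A* and *TIF11* were high at both, *PMA1*, *YEF3*, *PAB1* and *ERG13* were lower at 15 °C than at 37 °C, *BFR2* and *UTP14* were high at 15 °C, and *HXT2* and *BNI1* went opposite ways.
URA2: tataacaatcataatATGgccactattgct
FKS1: tacaacggtcagaccATGaacactgatcaa
RPL41A: atcgattcaatcgaaATGagagccaagtgg
TIF11: agagcaaagttcatcATGggtaagaaaaac
PMA1: tcaaacaatatcaatATGactgatacatca
YEF3: cgataacattaaaagATGtctgattcccag
PAB1: accaataaaaataaaATGgctgatattact
ERG13: tataaaaggtgcagcATGaaactctcaact
BFR2: atagagcaaaaaaagATGgaaaaatcacta
UTP14: taagctaacttaaatATGgcaaaaaagaaa
HXT2: ttataaagcaacataATGtctgaattcgct
BNI1: agagaaggaaaggaaATGttgaagaattca

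*BNI1* and *RPL41A* have G at the base 3 before the ATG, and the other 10 have A. Over the 3726 genes of the set with an R64 coding sequence, 65.1% have A there.

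The TE differences at 37 °C and 15 °C were related but far from equal. Their Spearman correlation across the 3728 genes was 0.37, that of the footprint differences was 0.39 and that of the mRNA differences 0.09, as descriptions across genes that share the same libraries. TE was at least 1.5-fold lower in *tif3*Δ in 426 genes at 37 °C (11.4% of the set) and in 637 at 15 °C (17.1%). It was at least 1.5-fold higher in 231 genes at 37 °C (6.20%) and in 436 at 15 °C (11.7%). Of the genes with lower TE, 180 were lower in both experiments, which is 42.3% of those at 37 °C and 28.3% of those at 15 °C. Of the genes with higher TE, 65 were higher in both, 28.1% and 14.9% of each list. The spread over genes was wider at 15 °C, with an SD of 0.46 at 37 °C and 0.59 at 15 °C, where the footprint libraries were shallower.

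The 37 °C minus 15 °C difference had a median of 0.01 and an SD of 0.59 over genes, with the 10th and 90th percentile at -0.7 and 0.78. It was at least 1.5-fold negative, that is, TE in *tif3*Δ stood relatively lower at 37 °C, in 500 genes (13.4%), and at least 1.5-fold positive in 595 (16.0%). Where genes are said below to lie higher or lower at 37 °C than at 15 °C, this difference is meant. In the 595 genes the footprint part was the larger one in 400 (67.2%), with a median of 0.67 for footprints and -0.2 for mRNA. In the 500 genes it was the larger one in 297 (59.4%), with medians of -0.54 for footprints and 0.4 for mRNA. In 368 of the 500 and 355 of the 595 the TE differences at 37 °C and 15 °C had opposite signs, whatever their size. These genes were chosen for a wide gap, and both TE differences had a median of -0.01 over the set. Opposite signs are thus favoured by the choice itself.

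**Figure D1:**
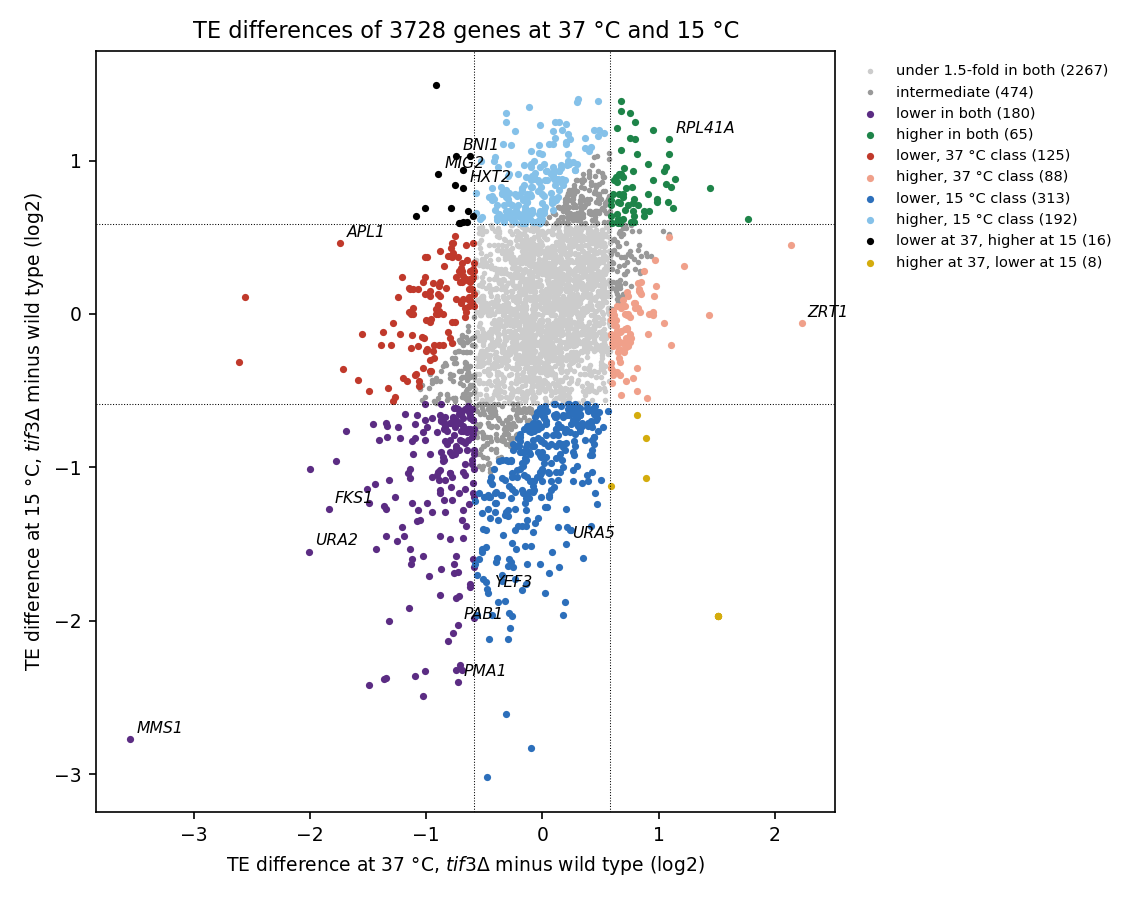
Each point is 1 of 3728 genes, with its TE difference (*tif3*Δ minus wild type, log2) at 37 °C on the x axis and at 15 °C on the y axis; dotted lines mark 1.5-fold. Colours give the classes and their gene numbers: 180 genes were lower and 65 higher in both, and 16 and 8 lay in the 2 opposite corners.

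Genes were then put in classes. A gene belongs to the class of 1 temperature where it passed 1.5-fold there, did not pass at the other, and the TE differences were themselves at least 1.5-fold apart. By this rule 125 genes were lower in the 37 °C class and 313 in the 15 °C class, 88 were higher in the 37 °C class and 192 in the 15 °C class, and 16 and 8 genes were past 1.5-fold in opposite directions. Another 474 genes passed at 1 temperature without the second condition, or otherwise fell between the classes, and 2267 passed at neither. Of these classes, in the order given, 87, 102, 40, 91, 7 and 1 genes had about 100 or more footprints in every group. When each TE difference was taken relative to genes of like length, the 125 genes became 40 and the 88 became 15. Since the classes are cut from the TE differences themselves, their medians below describe them and support nothing.

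The 180 genes lower at both temperatures had a median coding length of 2626 nt, and those described here had 100 or more footprints in every group. *URA2*, the multifunctional protein that starts pyrimidine synthesis, had log2 footprint values of 13.43 in *tif3*Δ and 14.74 in wild type at 37 °C with mRNA at 12.8 and 12.1. At 15 °C its footprints were 11.6 in *tif3*Δ and 12.55 in wild type with mRNA at 11.8 and 11.2. Lower footprints thus stood beside higher mRNA in both experiments, and TE was 4.03-fold lower at 37 °C and 2.93-fold lower at 15 °C. *FKS1*, the catalytic subunit of the cell wall glucan synthase, had footprints of 12.71 in *tif3*Δ and 14.55 in wild type at 37 °C and of 11.1 in *tif3*Δ and 12.67 in wild type at 15 °C, with mRNA differences of 0 and -0.3. Here the TE difference, -1.84 at 37 °C and -1.27 at 15 °C, lay in the footprints. *RPO21*, the largest subunit of RNA polymerase II (-1.43 at 37 °C, -1.53 at 15 °C), *FAS1* of fatty acid synthase (-1.36 and -1.25) and *IMD4* of guanine nucleotide synthesis (-1.35 and -1.27) differed by nearly the same amount at both temperatures. *NCP1*, the NADPH reductase that feeds electrons to sterol synthesis, was lower at 37 °C (-1.36) and lower still at 15 °C (-2.38).

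The 65 genes higher at both temperatures are short. Their median coding length was 522 nt, against 2626 nt in the 180 genes lower at both and 1322 nt in the whole set. *TIF11*, which encodes eIF1A, the factor that holds the scanning ribosome open, had log2 footprint values of 11.49 in *tif3*Δ and 11.04 in wild type at 37 °C, and of 10.9 in *tif3*Δ and 9.57 in wild type at 15 °C. Its mRNA was lower in *tif3*Δ at 37 °C (9.8 against 10.4) and higher at 15 °C (9.8 against 9.4), yet TE was 2.07-fold and 1.91-fold higher. *RPL41A*, for the smallest ribosomal protein, had TE differences of 1.09 at 37 °C and 1.14 at 15 °C; its near-identical copy *RPL41B* holds the same footprint values, so the 2 genes are 1 observation. *COX9*, a small cytochrome oxidase subunit, had 1.14 and 0.88, and *ELF1*, a transcription elongation factor, 0.91 and 0.98. *PDR12*, a long exporter of weak acids, was the longest of the 65, with 1.06 and 0.96. Its footprints were higher in *tif3*Δ by 2.96 at 37 °C and 1.66 at 15 °C on the log2 scale.

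The 125 genes of the 37 °C class with lower TE were the longest of the classes of 1 temperature, with a median of 3441 nt and the middle 50% between 2067 and 5052 nt. TE differed by a median of -0.89 at 37 °C and 0.1 at 15 °C, and 54.4% had A 3 bases before the ATG. *MSB2*, a mucin-like sensor of the cell wall and filamentous growth pathway, had footprints of 10.85 in *tif3*Δ and 12.34 in wild type at 37 °C at nearly equal mRNA (11.1 and 11.2). At 15 °C it had 7.9 in *tif3*Δ and 8.7 in wild type with mRNA at 8.4 and 9. Its TE was 2.62-fold lower at 37 °C and 1.15-fold lower at 15 °C. *BLM10*, a proteasome activator, was 2.81-fold and 1.41-fold lower, and *SEC16*, the scaffold of ER exit sites, 2.51-fold and 1.39-fold lower. *GPH1*, glycogen phosphorylase, was 3.01-fold lower in TE at 37 °C with nearly equal footprints (10.56 in *tif3*Δ and 10.65 in wild type), since its mRNA stood at 10.3 in *tif3*Δ and 8.8 in wild type.

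*APL1*, an adaptor subunit of vesicle coats, had the most negative 37 °C minus 15 °C difference among genes with 100 or more footprints, -2.2, and again most of it lay in the mRNA, at 10.8 in *tif3*Δ and 9.3 in wild type at 37 °C. In R64 *APL1* adjoins the α-specific gene *SAG1*, whose mRNA stood at 14.4 in *tif3*Δ and 10.7 in wild type at 37 °C and near 6 in both at 15 °C. Whether reads from *SAG1* enter the mRNA value of *APL1* was not tested. *PRY3*, a wall-associated sterol-binding protein, had footprints of 9.12 in *tif3*Δ and 10.74 in wild type at 37 °C and a difference of -1.36 between the temperatures.

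The 313 genes of the 15 °C class with lower TE were of middling length, with a median of 1107 nt, and 35.8% of them encode at least 1 strongly hydrophobic segment, against 28.9% of the set. That share was larger in the genes lower at both temperatures (43.9%) and in the 37 °C class with lower TE (45.6%). The median TE difference of the 313 genes was -0.02 at 37 °C and -0.96 at 15 °C, and it lay in the footprints, with a median of -0.92 at 15 °C. *YEF3*, the fungal elongation factor eEF3, had footprints of 16.28 in *tif3*Δ and 16.85 in wild type at 37 °C at mRNA of 14.5 and 14.6. At 15 °C it had 13.2 in *tif3*Δ and 14.72 in wild type although its mRNA was higher in *tif3*Δ (14.4 against 14.1). TE was 1.39-fold lower at 37 °C and 3.53-fold lower at 15 °C, which rests on about 4329 footprints in the shallowest group. *ERG13*, HMG-CoA synthase of the mevalonate pathway, was 1.22-fold lower at 37 °C and 3.03-fold lower at 15 °C, and *SUB2*, an mRNA export helicase, 1.23-fold and 3.12-fold. *CBR1*, cytochrome b5 reductase, was 1.09-fold and 3.1-fold lower. *FET3*, the iron oxidase of high-affinity uptake, was 3.07-fold lower at 15 °C with nearly equal footprints, since its mRNA stood at 10.5 in *tif3*Δ and 9 in wild type.

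The proton pump *PMA1*, among the most heavily translated mRNAs of yeast, passed 1.5-fold at both temperatures but to a different degree. Its footprints stood at 16.38 in *tif3*Δ and 17.11 in wild type at 37 °C at the same mRNA value of 14.9. At 15 °C they stood at 12.8 in *tif3*Δ and 14.8 in wild type, with mRNA at 13.9 and 13.5. TE was 1.66-fold lower at 37 °C and 5.28-fold lower at 15 °C, a 3.18-fold gap between the temperatures (1.67 on the log2 scale, with a counting SE of 0.027). The footprints at 15 °C amount to about 3281 in *tif3*Δ and 39102 in wild type. *PMA2*, its less expressed copy, gave 1.38-fold and 4.35-fold, though reads of the 2 genes may be shared. *PAB1*, the poly(A)-binding protein, likewise had 1.66-fold lower TE at 37 °C and 4.08-fold lower TE at 15 °C at equal mRNA (10.7 in both groups at 15 °C). *ITR1*, the inositol transporter, and *URA5*, a pyrimidine synthesis enzyme, had slightly higher TE in *tif3*Δ at 37 °C (0.25 and 0.2) and 2.66-fold and 2.83-fold lower TE at 15 °C. *SCS7*, a sphingolipid hydroxylase, was 1.51-fold lower at 37 °C and 3.94-fold lower at 15 °C.

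**Figure D2:**
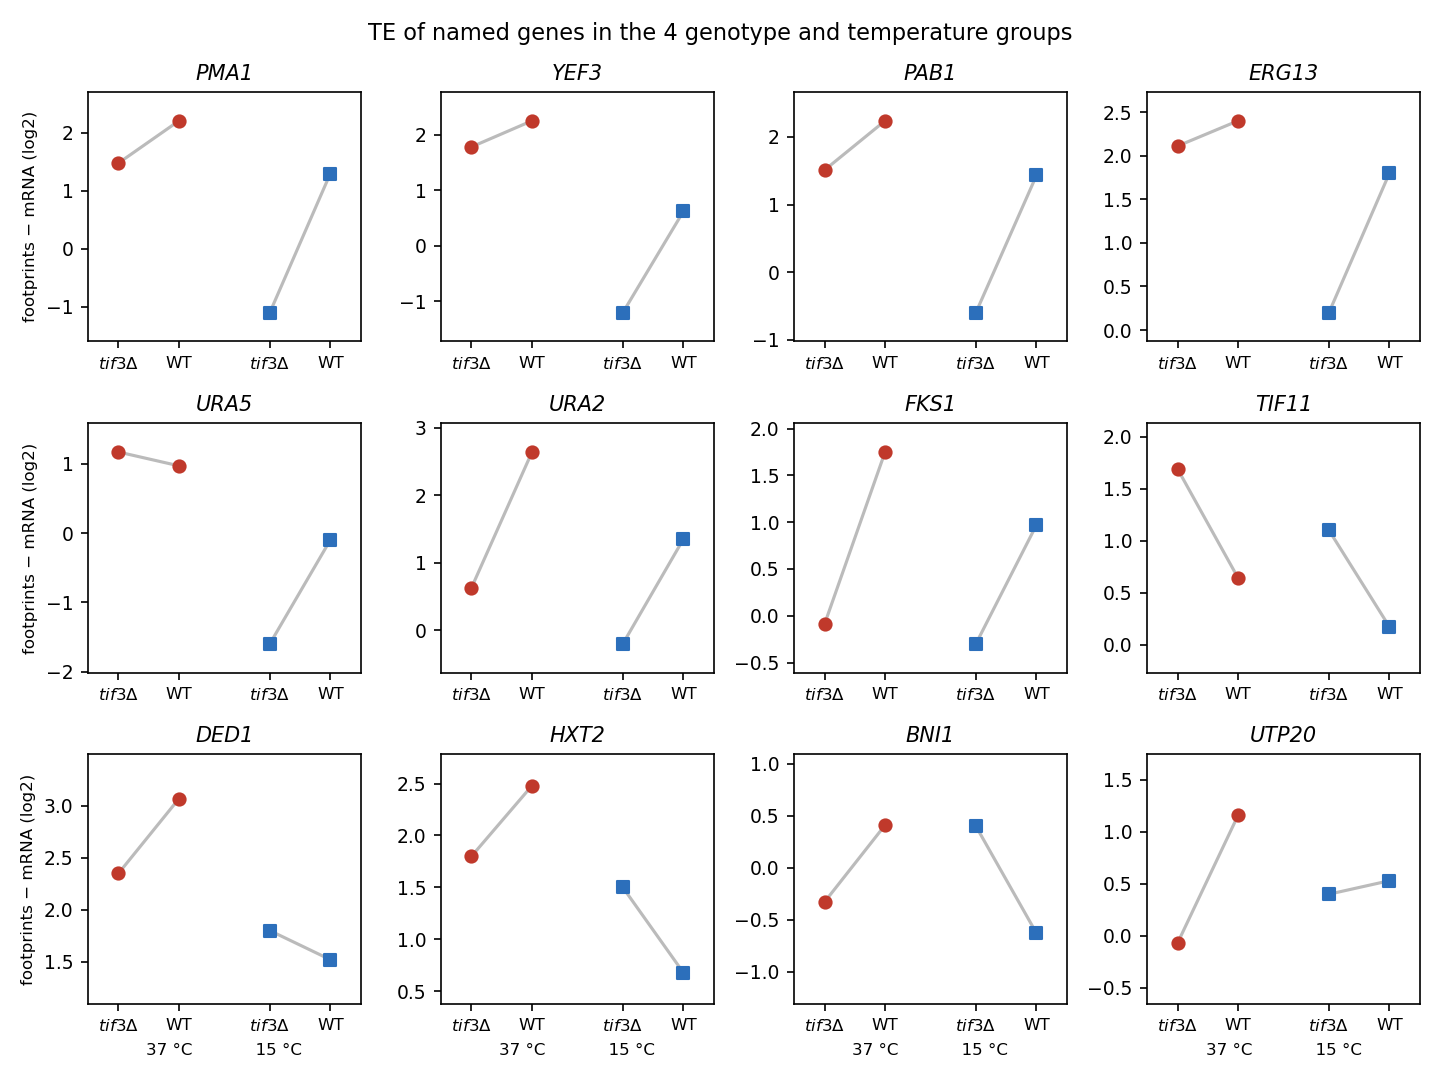
TE (log2 footprints minus log2 mRNA) of 12 genes in *tif3*Δ and wild type (WT), with 37 °C as red circles on the left and 15 °C as blue squares on the right; each point is 1 group value without replicates, and scales differ between panels. The line between the genotypes is steep at 15 °C for *PMA1*, *YEF3* and *PAB1*, steep at both for *URA2* and *FKS1*, and slopes opposite ways for *HXT2* and *BNI1*.

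The 88 genes of the 37 °C class with higher TE were short, with a median of 465 nt. *ZRT1*, the high-affinity zinc transporter, led them with a TE difference of 2.23 at 37 °C and -0.06 at 15 °C, but its wild-type value at 37 °C rests on about 115 footprints, against 1190 in *tif3*Δ. *STE2*, the **a**-specific pheromone receptor, had 2.14 and 0.45 on about 40 footprints in the shallowest group. It passed the limit in 37 °C footprints only through *tif3*Δ (10.83, against 4.89 in wild type). The next genes by size with 100 or more footprints were close together. *ECM15* (0.98 at 37 °C, 0.18 at 15 °C), the respiratory subunits *QCR6* (0.97 and 0.35) and *COX12* (0.87 and 0.28), *TMH11* (0.85 and 0.13) and the ribosomal protein gene *RPS30B* (0.84 and 0.01) followed.

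The 192 genes of the 15 °C class with higher TE had a median of 2061 nt and held 12 of the 54 small-subunit processome genes and 7 of the 70 genes of 60S assembly, against 5.15% of the whole set in this class. *BFR2*, of the small-subunit processome, had footprints of 9.45 in *tif3*Δ and 9.79 in wild type at 37 °C with mRNA at 9.7 and 9.8. At 15 °C it had 9.3 in *tif3*Δ and 8.61 in wild type with mRNA at 7.8 and 8.3. TE was 1.18-fold lower at 37 °C and 2.28-fold higher at 15 °C. *LCP5* of the same particle (0.2 at 37 °C, 1.24 at 15 °C), *SSF1* of the large subunit (0.22 and 1.17) and *RRN3*, the initiation factor of RNA polymerase I (0.09 and 1.19), had a like pattern. *SKS1*, a kinase of glucose signalling, had -0.31 at 37 °C and 1.25 at 15 °C. *FUS1*, of cell fusion in mating, had 0.11 and 1.25; it belongs to the pheromone response, whose mRNA differed between genotypes at 37 °C by a median of 1.4. Of the **a**-specific genes 3 passed the limit, with differences between temperatures of 1.69 in *STE2*, 1.15 in *STE6* and 0.62 in *BAR1*, beside a median mRNA difference of 2.2 at 37 °C and 0.1 at 15 °C. In footprints at 37 °C they passed only through *tif3*Δ, with 10.83, 7.66 and 8.46, against 4.89, 5.19 and 5.44 in wild type. A higher TE in *tif3*Δ at 37 °C is thus favoured by the limit itself.

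In the opposite corners the numbers are small. The 16 genes lower at 37 °C and higher at 15 °C make up 3.76% of those lower at 37 °C and 3.67% of those higher at 15 °C, and the 8 genes of the other corner 3.46% and 1.26%. The 16 were the longest class, with a median of 4062 nt, and 7 of the 16 had A before the start codon; 7 had 100 or more footprints in every group. *BNI1*, the formin that builds actin cables, had footprints of 9.67 in *tif3*Δ and 9.81 in wild type at 37 °C with mRNA at 10 and 9.4, and footprints of 8.1 in *tif3*Δ and 7.37 in wild type at 15 °C with mRNA at 7.7 and 8. The difference between temperatures was -1.77 with a counting SE of 0.174. *MIG2*, a repressor of glucose-repressed genes, was 1.87-fold lower at 37 °C and 1.88-fold higher at 15 °C, and *HXT2*, a hexose transporter, 1.6-fold lower and 1.77-fold higher. *FMP27*, a very long lipid transfer protein (2.01-fold and 1.61-fold), *NTE1*, a phospholipase (1.56-fold and 1.59-fold), and the subtelomeric frame YHR219W (1.54-fold and 2.04-fold) complete the 6 named by rule, the last with related copies elsewhere in the genome. Of the 8 genes in the other corner, 4 are the identical *ASP3* asparaginase copies with 1 shared set of values and about 19 footprints in the shallowest group, and *MRPL37*, *CMI7* and YPL088W had 34 or fewer. The 1 gene with more, YOL013W-A, has no coding sequence in R64 and had footprints of 15.23 in *tif3*Δ and 14.94 in wild type at 37 °C against mRNA of only 7.2 and 7.8.

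Of coding length, G and C content, start-site folding and hydrophobic segments, length had the largest correlation with the difference between the experiments. Across 3726 genes length and the TE difference had a Spearman correlation of -0.72 at 37 °C and -0.08 at 15 °C, and length and the 37 °C minus 15 °C difference one of -0.47. In the shortest 10% of genes (median 378 nt) TE differed by a median of 0.5 at 37 °C and 0.04 at 15 °C, and 37.3% of the genes lay at least 1.5-fold higher at 37 °C than at 15 °C, against 16.0% in the set. In the longest 10% (median 3765 nt) it was -0.6 at 37 °C and -0.02 at 15 °C, and 44.1% lay at least 1.5-fold lower at 37 °C than at 15 °C, against 13.4%. At least 1.5-fold lower TE was found in 51.9% of the longest 10% at 37 °C and in 20.2% at 15 °C.

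Splitting TE showed where the temperatures parted. The footprint differences were lower in longer genes at both temperatures, with correlations of -0.35 at 37 °C and -0.27 at 15 °C. The footprint part of the difference between temperatures had a correlation of 0.01 with length. The mRNA differences ran opposite ways, with 0.41 at 37 °C and -0.32 at 15 °C, and their part had 0.53. In the longest 10% the median footprint difference was -0.37 at 37 °C and -0.25 at 15 °C, while the median mRNA difference was 0.3 at 37 °C and -0.2 at 15 °C. In the shortest 10% footprints stood at 0.23 and 0.32, and mRNA at -0.3 and 0.3. The relation of mRNA to length thus had opposite signs in the experiments, and what goes with it in the preparation of the libraries was not tested. Within 3 groups of nearly equal size, of short, middle and long genes, the TE differences at 37 °C and 15 °C correlated at 0.37, 0.43 and 0.49.

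**Figure D3:**
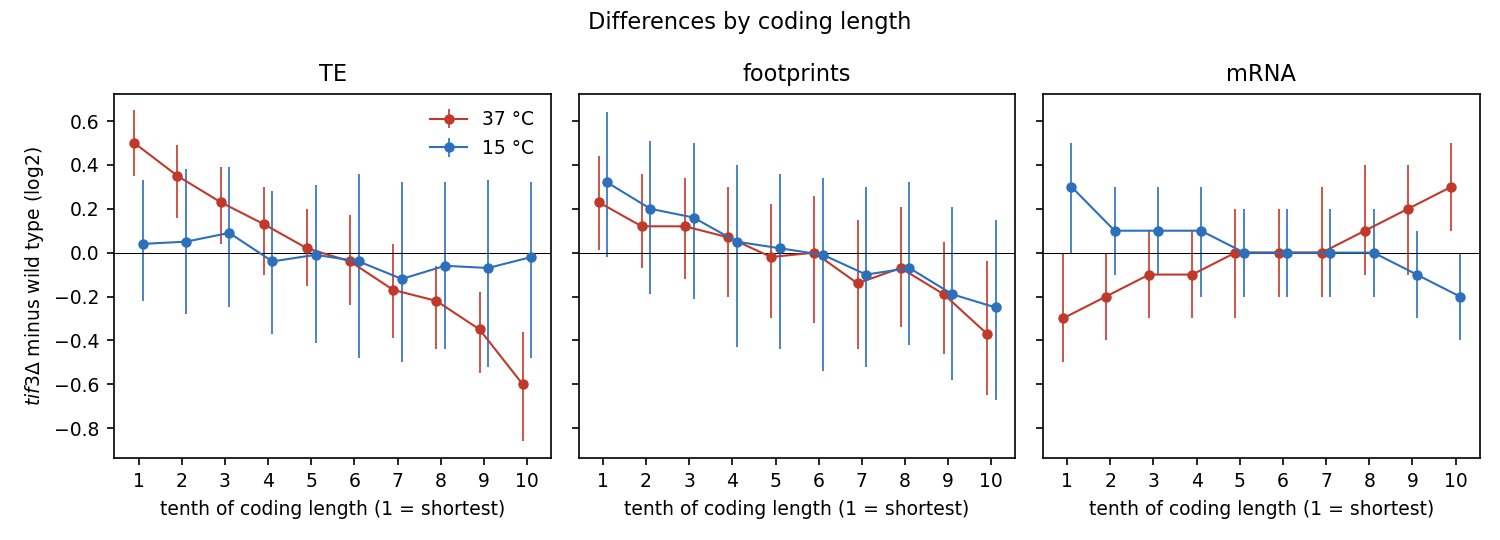
Median difference (*tif3*Δ minus wild type, log2; bars span the middle 50% of genes) in TE, footprints and mRNA for 10 groups of 3726 genes by coding length, at 37 °C (red) and 15 °C (blue). The footprint lines run together, while the mRNA lines cross, with medians of 0.3 at 37 °C and -0.2 at 15 °C in the longest group.

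Other sequence properties went with smaller differences. The share of G and C in the coding sequence correlated at 0.09 with the TE difference at 37 °C and at -0.21 at 15 °C, and at 0.27 with the difference between them; the mRNA difference at 15 °C correlated at 0.35 with it. Within the short, middle and long genes the correlation with the TE difference at 37 °C turned to -0.13, -0.19 and -0.1, while that at 15 °C was -0.24, -0.24 and -0.27 and that with the difference between them 0.16, 0.14 and 0.24. Predicted folding energy of the 30 bases on each side of the start codon (less negative means less stable) correlated at 0.18 with the TE difference at 37 °C, at 0.15 at 15 °C and at -0.03 with the difference. Within the same 3 groups these were 0.07, 0.04 and 0.05 at 37 °C, 0.16, 0.16 and 0.09 at 15 °C, and -0.14, -0.18 and -0.08 with the difference. All these relations were weak, and length and base composition are themselves correlated (-0.32). Proteins with 4 or more hydrophobic segments, mostly membrane proteins, differed in TE by a median of -0.24 at 37 °C and -0.23 at 15 °C over 257 genes, against 0.04 and 0.03 over the 2648 genes without such a segment. Relative to genes of like length the 257 genes had medians of -0.08 at 37 °C and -0.22 at 15 °C. TE was at least 1.5-fold lower in 22.2% of these 257 genes at 37 °C and in 31.1% at 15 °C, and in 10.9% at both, against 9.29%, 14.7% and 3.81% of the genes without a segment.

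Genes of the translation machinery were taken first among the gene lists. Of 136 cytosolic ribosomal protein genes, 75 lay at least 1.5-fold higher at 37 °C than at 15 °C and 0 lower, with a median of 0.61 against 0.01 over the set. Over all genes 16.0% lay higher and 13.4% lower, and these shares stand beside such counts in every list below. Their TE was higher in *tif3*Δ at 37 °C in 135 of 136 genes (median 0.46), against 1810 of all 3728 genes. It was lower at 15 °C in 100 (median -0.18), against 1881 of all 3728. Footprints lay the other way, with a median difference of 0.08 at 37 °C and 0.42 at 15 °C. The mRNA differences were -0.4 at 37 °C, where 132 of 136 were below 0, and 0.6 at 15 °C, where 134 were above 0. *RPL8B* had mRNA at 13.1 in *tif3*Δ and 13.4 in wild type at 37 °C and at 12.9 in *tif3*Δ and 12.3 in wild type at 15 °C, with footprints at 14.68 and 14.54, and at 13 and 13.2. *RPS14B* had a difference of 1.19 between temperatures. Ribosomal protein genes are short (median 435 nt), and relative to genes of like length the median of the list was 0.26. The TE medians on that scale were 0.02 at 37 °C and -0.23 at 15 °C. Many are near-identical pairs whose reads could be split in more than 1 way.

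Ribosome assembly factors lay on the opposite side. Of 54 genes of the small-subunit processome, the particle that processes the small-subunit rRNA, 20 lay at least 1.5-fold lower at 37 °C than at 15 °C and 1 higher, with a median of -0.46. Of 70 genes of 60S subunit assembly, 22 lay lower and 0 higher, with a median of -0.43. TE was at least 1.5-fold higher at 15 °C in 19 of 54 and 23 of 70 genes, against 11.7% of all genes. At 37 °C it was higher in 1 and 6, against 6.20% of all genes. The footprint medians were -0.23 at 37 °C and 0.48 at 15 °C in the first list and -0.26 and 0.53 in the second, and the mRNA medians were -0.1 and 0.1, and -0.3 and 0.1. *MAK5*, a helicase of 60S assembly, had footprints of 9.41 in *tif3*Δ and 9.78 in wild type at 37 °C and 9.5 in *tif3*Δ and 8.6 in wild type at 15 °C. *NOP7*, a scaffold of the same particle, had TE differences of -0.03 at 37 °C and 1.1 at 15 °C, and *UTP14*, a helicase cofactor chosen after its values were seen, 0.11 and 1.15. The longest member of each list was instead low at 37 °C. *REA1*, a giant ATPase that removes assembly factors, had -0.99 at 37 °C and 0.37 at 15 °C, and *UTP20*, a scaffold of the processome, had -1.23 and -0.13. Relative to genes of like length the list medians were -0.37 and -0.42.

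Initiation factors had small list medians and some single genes far from 0. Among 13 genes of eIF4F and related mRNA-binding factors, 2 lay at least 1.5-fold lower and 2 higher at 37 °C than at 15 °C. These counts are near the shares over all genes, 13.4% lower and 16.0% higher. The helicase *DED1*, which acts in scanning, had footprints of 12.65 in *tif3*Δ and 13.47 in wild type at 37 °C and of 12.7 in *tif3*Δ and 12.02 in wild type at 15 °C, and its TE was 1.65-fold lower at 37 °C and 1.21-fold higher at 15 °C. *TIF4631*, for eIF4G1, the scaffold of eIF4F, was 2.04-fold lower at 37 °C and 1.27-fold lower at 15 °C. *PAB1*, which binds eIF4G and bridges the mRNA ends, is the counterpart described above, with 1.3 between temperatures. *CDC33*, the cap-binding protein eIF4E, chosen after its values were seen, had -0.02 and -0.09. Of 18 genes of eIF1, eIF1A, eIF2, eIF2B, eIF3, eIF5, eIF5B and related factors, 4 lay lower at 37 °C and 0 higher. These were *FUN12* (eIF5B), the eIF3 subunits *RPG1* and *NIP1*, and *RLI1*, between -0.8 and -0.6. The list median was -0.15, and -0.28 relative to genes of like length. *FUN12*, *RPG1*, *NIP1* and *TIF4631* are 2439 to 3009 nt long, and 27.2% of all genes of 2283 to 3015 nt lay lower. Of 14 elongation and termination factors 3 lay higher at 37 °C, among them *YEF3* and *EFB1*, a guanine exchange factor for elongation factor 1A (0.42 at 37 °C and -0.48 at 15 °C). *ANB1*, the anaerobic form of eIF5A with a near-identical copy in *HYP2*, and *GCN1*, which senses stalled ribosomes, lay lower, at -1.1 and -0.62. *GCN1* is 8019 nt long, and 44.1% of the longest 10% of genes lay lower. Of 11 DEAD-box helicases acting on mRNA, 5 lay lower and 1, *SUB2*, higher. Their median was -0.56, and -0.22 relative to genes of like length.

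**Figure D4:**
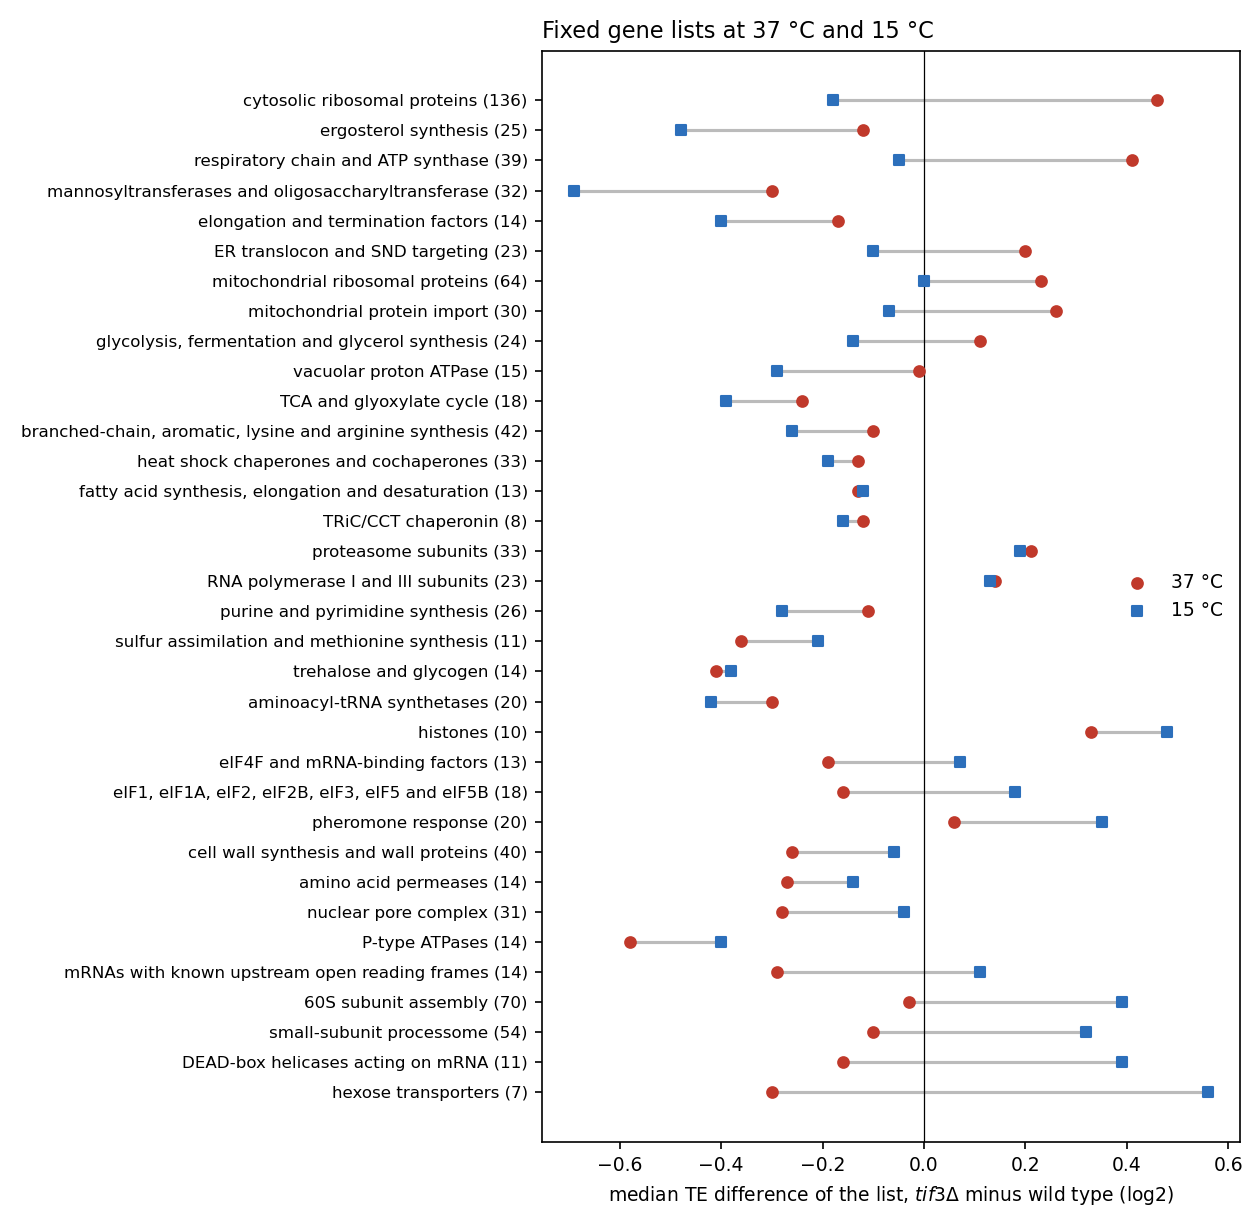
Median TE difference (*tif3*Δ minus wild type, log2) of 34 gene lists with 5 or more members, at 37 °C (red circles) and 15 °C (blue squares), ordered from the most positive to the most negative difference between the temperatures, with member numbers in parentheses. Cytosolic ribosomal proteins (0.46 and -0.18) stand at the top and hexose transporters (-0.3 and 0.56) at the bottom.

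Lists of membrane and secretory functions differed among themselves. Of 32 mannosyltransferases and oligosaccharyltransferase subunits, which build and attach sugar chains in the ER and Golgi, 5 had at least 1.5-fold lower TE at 37 °C and 20 at 15 °C, against 11.4% and 17.1% of all genes. The list median was -0.3 at 37 °C and -0.69 at 15 °C, and 11 genes lay higher at 37 °C than at 15 °C, 0 lower. *OST1*, a subunit of oligosaccharyltransferase, had 1.25-fold lower TE at 37 °C and 2.48-fold lower TE at 15 °C, with 15 °C footprints of 7.8 in *tif3*Δ and 9.51 in wild type. *WBP1* of the same enzyme was equal at 37 °C (0) and 2.01-fold lower at 15 °C, and the mannosyltransferase *KRE2* 1.16-fold and 2.6-fold lower. In ergosterol synthesis 7 of 25 genes lay higher at 37 °C than at 15 °C and 1 lower, with a median of -0.12 at 37 °C and -0.48 at 15 °C; *ERG2* had 0.26 and -1.02, *ERG4* -0.01 and -1.04. *ERG7*, lanosterol synthase, was the 1 gene that lay lower, with -0.51 and 0.21, on about 89 footprints in the shallowest group. Of 14 P-type ATPases 7 had at least 1.5-fold lower TE at 37 °C and 5 at 15 °C, against the same 11.4% and 17.1%. Their median difference between temperatures was -0.31, and it turned to 0.14 relative to genes of like length, where the TE medians were -0.04 at 37 °C and -0.38 at 15 °C. *PMA1*, *PMA2* and the Golgi calcium pump *PMR1* (-0.45 and -1.03) were lower at 15 °C, while the long flippases *DNF1* (-0.69 and -0.14) and *DNF2* (-0.77 and -0.4) were lower at 37 °C. Of 23 genes of the ER translocon and targeting, 8 lay higher at 37 °C and 2 lower, with *SSH1*, a translocon channel, at -0.38 and -1.34.

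Hexose transporters lay on the other side. All 7 that passed the limit, of 18 names in the list, lay at least 1.5-fold lower at 37 °C than at 15 °C, with differences between -1.5 and -0.67. *HXT1*, the low-affinity transporter of high glucose, had footprints of 13.42 in *tif3*Δ and 13.55 in wild type at 37 °C and of 12.9 in *tif3*Δ and 11.63 in wild type at 15 °C, and its mRNA differed by 0.3 and 0.5. Footprints of the list were higher in *tif3*Δ at 15 °C in 7 of 7 genes, by a median of 1.39, and mRNA in 7 of 7, by 0.8. At 37 °C the medians were -0.18 and 0.2. *HXT4* had lower TE at both (-1.07 and -0.21). *HXT6* and *HXT7* are near-identical and their values (-0.7 and -0.67) are close to 1 observation.

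**Figure D5:**
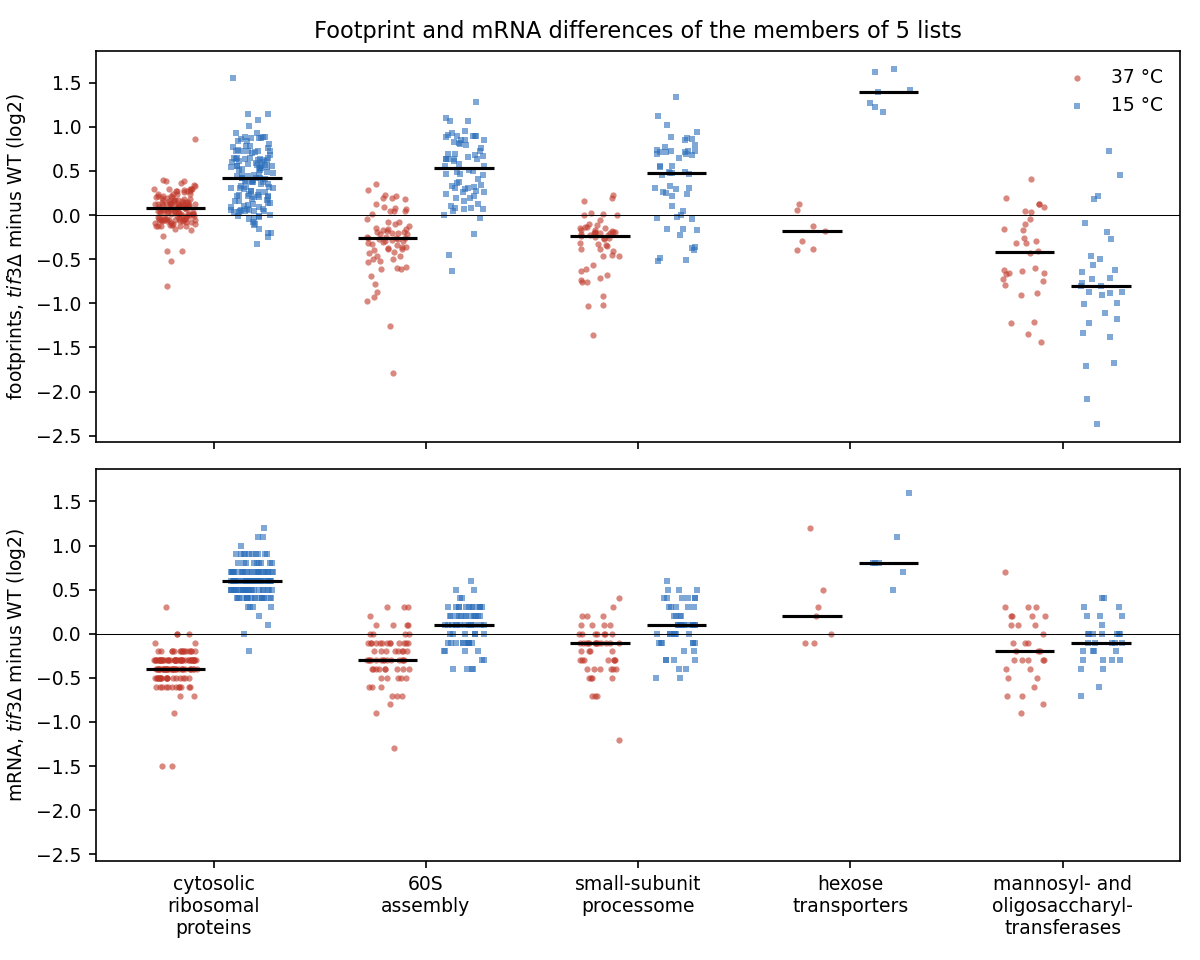
Footprint (top) and mRNA (bottom) differences, *tif3*Δ minus wild type (WT) on a log2 scale, of each member of 5 lists at 37 °C (red) and 15 °C (blue), with black bars at the medians. Ribosomal protein genes part by mRNA (-0.4 and 0.6), and assembly factors and hexose transporters mainly by footprints.

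Mitochondrial genes followed. Of 39 genes of the respiratory chain and ATP synthase, 12 lay at least 1.5-fold higher at 37 °C and 0 lower, against 16.0% and 13.4% of all genes. The TE medians were 0.41 at 37 °C and -0.05 at 15 °C, and relative to genes of like length the median of the difference was 0.03. These genes are short (median 456 nt), and 37.3% of the shortest 10% of all genes lay higher. *ATP7* and *ATP17*, subunits of ATP synthase, had 0.6 and -0.45, and 0.32 and -0.75. Of 64 mitochondrial ribosomal protein genes 22 lay higher and 2 lower, and of 30 import genes 7 higher and 0 lower, with medians of 0.04 and 0.03 relative to genes of like length.

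Of 31 nuclear pore genes 9 lay lower at 37 °C and 2 higher, against 13.4% and 16.0% of all genes. The median difference between temperatures was -0.3, and 0 relative to genes of like length; *NUP120* stood at -0.36 and 0.83 and *NUP192* at -0.61 and 0.23. Of 40 genes of cell wall synthesis and wall proteins 9 lay lower and 3 higher (median -0.23, and -0.27 relative to genes of like length), with the glucan synthase *GSC2* at -1.12 and -0.14 and the wall protein *SUN4* at -1.11 and 0.16. Of 14 mRNAs with known upstream open reading frames, short frames in the leader that hold back the main frame, 4 lay lower and 0 higher (median -0.37, and -0.32 relative to genes of like length). *GCN4*, the master regulator of amino acid synthesis, had mRNA of 13.1 in *tif3*Δ and 12.6 in wild type at 37 °C but about 129 and 213 footprints, and TE differences of -0.66 at 37 °C and 0.45 at 15 °C. *HAP4*, an activator of respiration genes, had -1.29 and -0.06. Outside these lists, *OLE1*, the fatty acid desaturase of the fatty acid synthesis list, had -0.88 and 0.41.

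In several lists the 2 experiments gave nearly the same median TE difference, though single members differed. The medians were 0.21 at 37 °C and 0.19 at 15 °C for 33 proteasome genes, -0.13 and -0.12 for 13 genes of fatty acid synthesis, -0.41 and -0.38 for 14 of trehalose and glycogen, and -0.3 and -0.42 for 20 aminoacyl-tRNA synthetases. Relative to genes of like length the median differences between temperatures of these lists were -0.1, 0.11, 0.16 and 0.22. Over single members the difference ran from -0.56 to 0.92 in the proteasome list and from -1.29 to 0.94 in fatty acid synthesis. In trehalose and glycogen it ran from -1.16 to 0.92, and in the synthetases from -0.45 to 0.76. The 10 histone genes had higher TE in *tif3*Δ in 10 of 10 at each temperature (medians 0.33 and 0.48), although their mRNA stood at a median difference of -1.8 at 37 °C and 0.15 at 15 °C. Relative to genes of like length, the TE median of these short genes was -0.1 at 37 °C and 0.45 at 15 °C, and the difference between temperatures -0.53. *HHF1*, for histone H4, had mRNA of 10.5 in *tif3*Δ and 12.8 in wild type at 37 °C and of 10.3 in *tif3*Δ and 10.4 in wild type at 15 °C.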

How the data were processed

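Footprints and mRNA were sequenced from *tif3*Δ and wild-type yeast in 16 libraries, grouped by the sample labels into 8 groups of 2. Tools named in the submitters' processing notes are DESeq, TopHat2 2.0.7, CASAVA 1.8 and Bowtie2 2.0.6; the build named there is sacCer2. The deposited tables hold, per gene and group, 1 log2 normalised value made by the authors, rounded to 1 or 2 decimals, and the authors' log2 differences. The way 2 libraries became 1 value was not given in the sources used here. Differences were computed from the 8 group values. A fixed plan for a count model needs single libraries and could not be run, so all results are descriptions, with 1.5-fold as threshold. The members and gene lists were chosen with earlier results of these data known.

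Footprint numbers are group values over the smallest step between low values (1.082 and 0.735 normalised units in *tif3*Δ and wild type at 37 °C, 2.174 and 0.730 at 15 °C; 100.0%, 97.1%, 83.0% and 75.0% of values up to 6 steps lay within 0.15 of a whole number). Sequences, lengths and names come from RefSeq R64, and no coordinates are given because the tables use another build. A hydrophobic segment is a window of 19 residues with a mean Kyte-Doolittle value of 1.6 or more. Folding was predicted with RNAfold 2.7.2. Python 3.11.15 with pandas 2.3.3 and numpy 2.4.6 was used, and the classification was tested on simulated data. Values relative to genes of like length are TE differences minus the median of 20 length bins, an alternative added after seeing the data. Named genes had 100 or more footprints in every group: the 8 lowest and 8 highest differences, 6 per class and up to 4 per list of 36. Genes of the lists below 100 footprints, and others named for their role, were chosen after their values were seen. Alternatives were limits of 32, of 2 times 64 and none, 2-fold, centring, the authors' deposited differences, a footprint minimum and leaving out genes with shared values.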

Additional observations from a re-analysis of the deposited data

Results flagged for a closer look

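The TE difference went opposite ways at 37 °C and 15 °C, past 1.5-fold in both, in 7 named genes, and the difference was not tested since each group has 1 value. The 37 °C minus 15 °C value was -1.81 in *MIG2*, -1.77 in *BNI1*, -1.7 in *FMP27*, -1.65 in YHR219W, -1.5 in *HXT2* and -1.31 in *NTE1*, and 1.7 in YOL013W-A. The medians of 2 lists also had opposite signs: cytosolic ribosomal proteins at 0.46 at 37 °C and -0.18 at 15 °C (0.61 for the difference), and hexose transporters at -0.3 and 0.56 (-0.86). Relative to genes of like length the TE medians were 0.02 and -0.23 for ribosomal proteins, and -0.11 and 0.7 for hexose transporters.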

How the results depend on the processing

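No paired analysis was possible because the tables hold 1 value per group, and for the same reason no replicate could be left out. Counts depend on the limit and on depth. No list median past 1.5-fold changed sign among the alternatives run. Only the correlation between the TE differences and that of their difference with length were recomputed, and neither changed sign. They were not recomputed relative to genes of like length. Named genes were recomputed only with centring and with the authors' deposited differences. Both shifts were too small to change the sign of a difference past 1.5-fold, so this says nothing on their stability. With a limit of 32 (4464 genes), 105 genes were higher in both, 134 higher in the 37 °C class and 17 higher at 37 °C and lower at 15 °C. With the limit at 2 times 64 (2531 genes) these were 33, 46 and 1, with 182 lower and 97 higher in the 15 °C class, and 363 genes higher and 312 lower at 37 °C than at 15 °C. With no limit (5106 genes) they were 144, 183 and 54, with 518 lower and 314 higher in the 15 °C class, 44 lower at 37 °C and higher at 15 °C, 1019 higher at 37 °C than at 15 °C, and a correlation of 0.31 between the TE differences. At 2-fold, 35 genes were lower and 2 higher in both, 27 lower and 6 higher in the 37 °C class, 123 lower and 28 higher in the 15 °C class, 0 and 4 opposite, and 204 higher and 137 lower at 37 °C than at 15 °C. With 100 or more footprints (1981 genes), 82 were lower and 36 higher in both, 40 higher in the 37 °C class, 102 lower and 91 higher in the 15 °C class, 7 and 1 opposite, and 232 higher and 276 lower at 37 °C than at 15 °C; the correlation with length was -0.53. Without genes that share values, 4 were higher at 37 °C and lower at 15 °C. Relative to genes of like length, 96 were lower and 30 higher in both, 40 lower and 15 higher in the 37 °C class, and 4 lower at 37 °C and higher at 15 °C. Of 279 list medians recomputed, 36 moved by over 0.1, 16 of them relative to genes of like length. Against the authors' deposited table, the 37 °C minus 15 °C difference was off by a median of 0.045 and at most 0.212. Differences near the median counting SE of 0.18 are not distinguishable from counting error and rounding.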
